A study of Harpegnathos saltator with 19 samples.

Results

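In RNA-seq of 19 single-ant brains of Harpegnathos saltator, 187 of the 14001 genes in the deposited table were chosen because they varied most between ants of the same group and the same sequencing run label. The choice was made on FPKM (fragments per length of gene and per depth of library, as the authors scaled it). Among the 6088 genes with a mean of at least 5 FPKM, log2(FPKM + 0.5) was centred on the mean of each cell of group and run label, and the 200 genes with the largest root mean square (RMS) residual were taken. Of these, 13 genes were left out because 1 library held over 50% of the squared residuals, in 10 cases 20E replicate 6. The spread that picked the genes is given below as a description. The differences between hormones, which the rule had removed by centring, were tested.

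The ants were workers whose central brain was dissected 10 h after an injection into the head, below the antennae. The groups were 100 ng of 20E (20-hydroxyecdysone, the insect moulting hormone, 7 ants) and 100 ng of JH3 (juvenile hormone III, 7 ants). The control was DMSO (5 ants). The hormones are described as dissolved in glucose solution, and the exact vehicle of each group is not clear. If the vehicles differed, hormone and vehicle cannot be told apart in the comparisons with DMSO. Replicates 1 to 3 of each group carry the run label 190514, and the later replicates carry 200212. The labels give no nest or genotype for single ants. Libraries were strand-specific and made from poly(A) RNA, and held 14.05 to 26.09 M reads on genes (median 18.31 M). The neuron markers (16 of 16) and glia markers (9 of 10) reached a mean of 5 FPKM, and none of them was among the 187 genes. 20E replicate 6 stood apart: the authors' scaling was 0.763 of what its total reads would give, against 0.898 to 1.12 in the other libraries, and the results it carries most are also given without it. In such bulk samples, fewer cells of a type and less RNA per cell cannot be told apart.

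A dissected insect brain can carry parts of its surroundings. The compound eyes and ocelli, whose photoreceptors detect light with opsins and end the response with arrestins, join the brain through the optic lobes. Cuticle and tracheae are lined by cells that secrete chitin and cuticle proteins, muscles attach in the head, and fat body and haemocytes bathe the brain in secreted proteins such as vitellogenin, the egg yolk precursor. In ants, vitellogenin and juvenile hormone are tied to reproduction and division of labour.

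The 187 genes had a median RMS residual of 0.71 on the log2 scale (0.50 to 2.39), against 0.16 over the 6088 genes. The last genes inside the 200 were BORCS7 (0.5005), LOC105190190 (0.5001) and Tret1 (0.4992), and the first outside were LOC105182724 (0.4989), LOC105189822 (0.4987) and Lamtor3 (0.4971), so the boundary is a rank and not a gap. Counting error would give a median of 0.949% of the squared residuals of the 187 genes, and over 10% for 4 of them. Only 42 of the 187 (22.5%) have a symbol other than a LOC number, against 48.6% of the 6088 genes. Pseudogenes made up 15 of the 187 (8.02%, against 0.821%) and long non-coding RNAs 10 (5.35%, against 1.99%). Their median gene length was 0.48 of that of the 6088 genes. In the RefSeq gene table, 32 of the 187 (17.1%) stood next to another of the 187, while 2.47% of all genes in the table stood next to 1 of them, and 21 of the 22 neighbouring pairs fell into the same covarying group. Of the 32, 13 belong to a single run of neighbours within 1 covarying group, so these counts lean on that run.

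**Figure D1:**
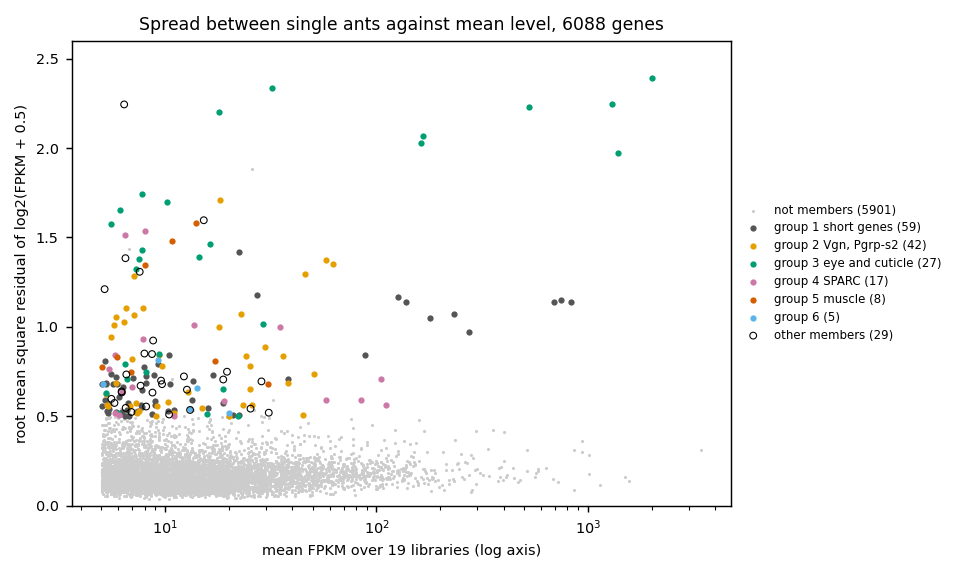
RMS residual of log2(FPKM + 0.5) against mean FPKM (log axis) for 6088 genes; the 187 chosen genes are coloured by covarying group and the 5901 others are grey. Above an RMS residual of 2 lie genes of the eye and cuticle group and LOC112589190, while the short genes of group 1 reach 833 FPKM.

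The genes did not vary as 1 block. Over all 17391 pairs the median correlation of residuals was 0.08, but average linkage on 1 minus Pearson's r, divided at a distance of 0.5, gave 6 groups of at least 5 genes that together held 158 genes. A further 22 genes fell into 9 groups of 2 to 4, and 7 stood alone. All correlations here are over 19 libraries with 13 residual degrees of freedom, they share depth and dissection, and the cell of DMSO in run 200212 has 2 libraries whose residuals mirror each other. The 6 groups had median pairwise r of 0.89 (59 genes), 0.65 (42), 0.72 (27), 0.70 (17), 0.92 (8) and 0.63 (5). Within run 190514 these were 0.87, 0.66, 0.77, 0.71, 0.92 and 0.54, and within run 200212 they were 0.93, 0.73, 0.77, 0.74, 0.92 and 0.61. The mean residuals of the eye and cuticle group (27 genes), the Pgrp-s2 group (42) and the muscle group (8) were weakly related to each other, with r of 0.17, -0.13 and 0.03 among the 3 pairs.

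**Figure D2:**
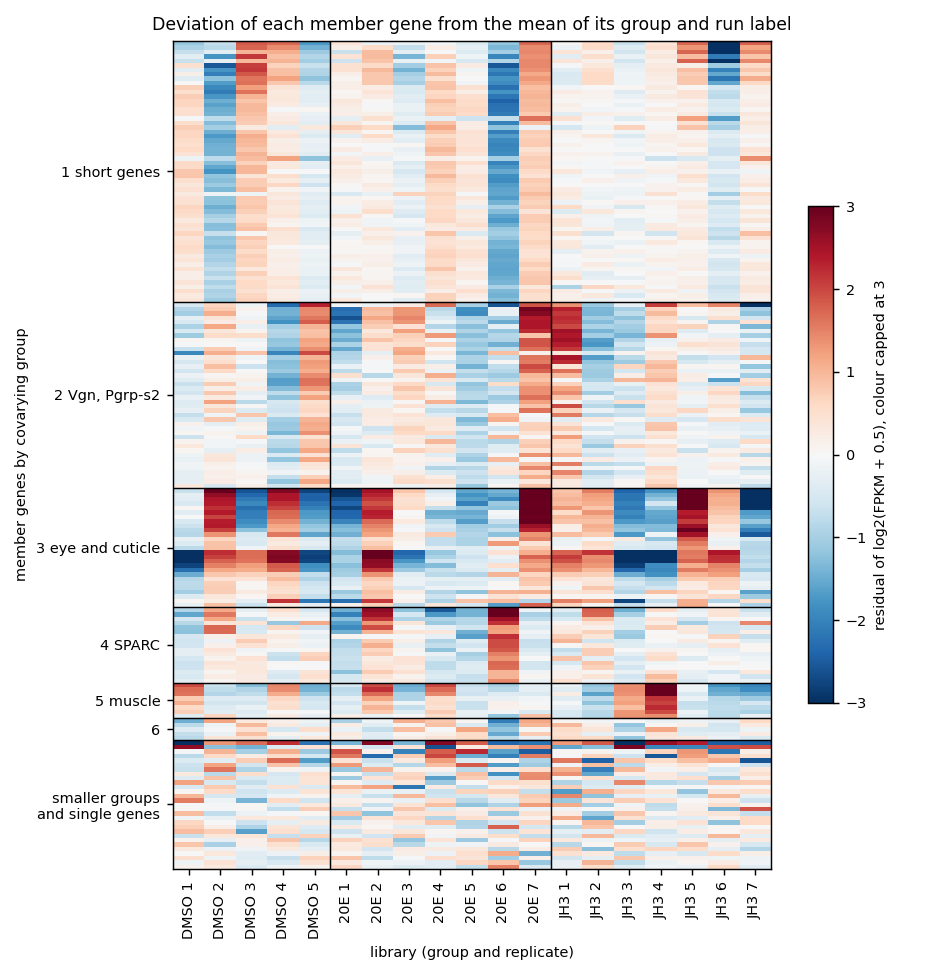
Residual of log2(FPKM + 0.5) for each of the 187 genes (rows, by covarying group) in each of 19 libraries (columns); red is above and blue below the mean of the library's group and run label, with colours capped at 3. Group 1 is lowest in 20E replicate 6 and DMSO replicate 2, group 3 splits into a cuticle block above and a photoreceptor block below, and the muscle group peaks in JH3 replicate 4.

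The rule was also applied to each run label alone, so that genes picked in one set of ants could be read in ants that had no part in the choice. Run 190514 gave 132 genes and run 200212 gave 109, and 59 genes were chosen in both, which is 44.7% and 54.1% of the 2 lists; the rule takes 1.80% of the measured genes in run 200212. Of the 132 genes, 106 reached the level minimum in run 200212, where all 106 lay above the median RMS residual of 0.15, with a median of 0.83. Of the 109 genes, 96 were measured in run 190514, 94 of them above the median there. The 59 genes included 20 of the 27 genes of the eye and cuticle group and 17 of the 42 genes of the Pgrp-s2 group, but 7 of 59 of group 1 and 2 of 8 of the muscle group. The rule within a run also left out genes with over 50% of the squared residuals in 1 library, so absence does not mean a small spread. The muscle group had a median RMS residual of 0.78 in run 190514 and 0.89 in run 200212. Mlc2, not among the 59, had 1.19 and 1.47. Groups formed in run 200212 alone had median r of 0.60 to 0.79 in run 190514. Groups formed in run 190514 alone had median r from -0.27 to 0.90 in run 200212. In the largest of them, 35 of 45 genes were measured in both runs, 21 of these in the eye and cuticle group. Its median r was 0.75 in run 190514 and 0.27 in run 200212. For the groups with Pgrp-s2 and SPARC, and with Mlc2 and Mhc, it fell from 0.87 and 0.79 to 0.49 in each. For that with brn and Cds it rose from 0.80 to 0.90. The group of run 200212 with Arr1 and apd-3l had 0.80 there and 0.79 in run 190514.

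Genes of the eye and of cuticle had most of the largest spreads. Arr1, an arrestin that shuts off activated rhodopsin in fly photoreceptors, was at 0.666, 80.2, 54.9, 67.1 and 1.02 FPKM in DMSO replicates 1 to 5. In 20E ants it ran from 0.642 to 73.0 (median 16.9), and in JH3 ants from 0.491 to 66.5 (median 34.5). Each group thus held ants below 2 FPKM and ants above 60 FPKM, a 163-fold range over all libraries. Arr2, the second arrestin, was at 9.72, 361, 328, 323 and 6.70 FPKM in the DMSO ants, high and low in the same ants as Arr1 (r = 0.99). Gbeta76C, the eye form of the G protein beta subunit in the fly, spanned 0.237 to 17.3 FPKM. Lop2, a long-wavelength opsin, was at 2.27, 29.5, 28.4, 30.9 and 2.30 FPKM in DMSO ants and correlated with Arr1 at r = 0.98. Its 19 values left a gap, with 10 libraries at 2.15 to 9.45 FPKM and 9 at 26.5 to 34.4. Summed FPKM of the eye list ran from 70.6 to 578 over the libraries, and that of the neuron list from 891 to 1551. The eye list includes 5 genes that were chosen for their spread and the neuron list includes none, so these ranges cannot be compared. Without those 5 genes the eye sum ran from 53.5 (JH3 replicate 1) to 130.1 (20E replicate 6). The part of dissection in these values was not tested.

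Dividing the tree at 0.3, a distance chosen after the values were seen, separated 9 of the 27 genes as a photoreceptor block: Arr1, Arr2, Gbeta76C, Lop2, Achl and 4 genes without a symbol. Their median r was 0.92 (0.97 and 0.96 within runs 190514 and 200212). Of the 12 eye-list genes outside the 187 that reached at least 1 FPKM in at least 5 libraries, 6 correlated above 0.5 with the mean of these 9, against 1.89% of the 9194 such genes. They were chp, ninaC, Uvop, ninaB, boss (0.92) and trp (0.57), while Rh5 (0.39), eya (-0.03), sev (-0.04), rdgA (-0.16), eys (-0.24) and rdgB (-0.33) did not. Over all genes with a symbol outside the 187, those with the largest r included tan (0.99), which frees histamine from carcinine in fly photoreceptors, chp (0.98), a photoreceptor adhesion protein, and ninaC (0.97), a photoreceptor myosin. Uvop, an ultraviolet opsin, had r = 0.95, HisCl1, a histamine-gated chloride channel, 0.94, and ninaB, which makes the retinal precursor, 0.93. Hdc, which makes histamine and is itself among the 187 genes, correlated with the mean of the 9 genes at 0.70. Of the 8 genes of the eye list with a mean of at least 5 FPKM, 5 were among the 187. The other 3 (sev, rdgA and rdgB) had RMS residuals of 0.19 to 0.24, against a median of 0.16 over the 6088 genes, and negative r with the group mean (-0.17 to -0.32).

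Lop1, the other long-wavelength opsin, did not follow. Lop1 was at 2.34, 5.41, 0.960, 11.5 and 2.11 FPKM in DMSO ants, from 0.590 to 29.2 (median 4.36) in 20E ants and from 0.586 to 11.9 (median 0.960) in JH3 ants. Its highest value, in 20E replicate 5, met 16.9 FPKM of Arr1, while Arr1's highest ant, DMSO replicate 2, had 5.41 FPKM of Lop1. Lop1 and Lop2 are neighbours in the gene table, yet their residuals had r = -0.07 (0.07 and -0.17 within the runs). Lop1 and Arr1 had r = -0.02. Lop1 instead shared its pattern with LOC105189225, also one of the 187 (r = 0.81, and 0.79 and 0.83 within the runs). Among genes with a symbol outside the 187, the most similar was CPR5, whose symbol is that of a cuticle protein (r = 0.73). Next came Vang (0.71), then Rh5 of the eye list and unc79 (0.68 each). Rh5 averaged 0.706 FPKM, and its r with Lop1 was 0.81 and 0.65 within the runs.

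**Figure D3:**
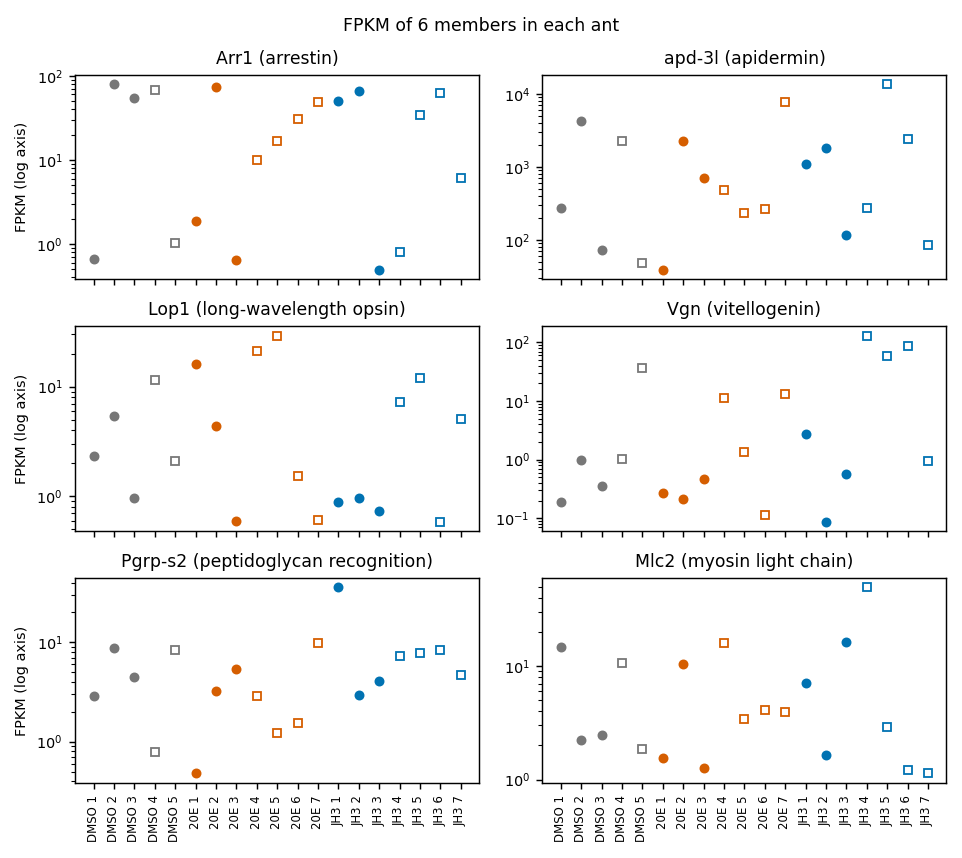
FPKM (log axis) of 6 of the 187 genes in each ant, for DMSO (grey), 20E (orange) and JH3 (blue); filled circles are run 190514 and open squares run 200212. Arr1 is below 2 FPKM in some ants and above 60 in others of every group, Lop1 follows another order of ants, and Vgn is above 50 FPKM in JH3 replicates 4 to 6.

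The second block of the same group held 14 genes (median r 0.93 in all, 0.94 and 0.93 within the runs). Only 3 of them have a symbol, apd-3l, Cpr97Ea and serp, and the name cuticle block rests on these. apd-3l, an apidermin (a family of hymenopteran cuticle proteins), had the largest RMS residual of all 187 genes, 2.39. It was at 277, 4235, 73.7, 2252 and 48.1 FPKM in the DMSO ants, from 38.8 to 7783 (median 486) in 20E ants and from 84.9 to 13749 (median 1113) in JH3 ants. The span was 355-fold, and again every group held high and low ants. The unnamed neighbours LOC105189843 and LOC105189844 averaged 1306 and 525 FPKM, peaked in the same ant, JH3 replicate 5, and had RMS residuals of 2.24 and 2.23. Cpr97Ea, a chitin-binding cuticle protein of the fly, spanned 0.461 to 40.0 FPKM, and serp, a chitin deacetylase of the fly trachea, 2.09 to 11.3 FPKM.

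Of the 7 genes of the trachea and cuticle list outside the 187, 2 correlated above 0.5 with the mean of this block, against 1.60% of the 9194 genes: Cht7, a chitinase (0.85), and verm, a chitin deacetylase (0.84). Gasp (0.47), Ddc (0.40), kkv (0.33), rtv (0.29) and Np (0.10) did not. Cht7 and verm also passed 0.5 with the photoreceptor block (0.57 and 0.53). Of the 12 eye-list genes, 5 passed 0.5 with the cuticle block as well. They were ninaB (0.75), chp (0.74), ninaC (0.73), Uvop (0.70) and boss (0.70), so the 2 lists were not particular to 1 block each. Among all genes with a symbol outside the 187, the most similar included Cpap3-d (r = 0.98), a protein of chitin-binding type, conv (0.96), which acts in the tracheal tube matrix of the fly, and Cda5, another chitin deacetylase (0.89). The photoreceptor and cuticle blocks were related but not the same: the median r between them was 0.68, and Arr1 and apd-3l had r = 0.65. DMSO replicate 3 separates them, with Arr1 at 54.9 FPKM, among the higher ants, and apd-3l at 73.7 FPKM, among the lowest. CPR14, another gene with a cuticle protein symbol, joined no group, at 4.08 to 28.3 FPKM.

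The muscle group of 8 genes held Mhc (muscle myosin heavy chain), the myosin light chains Mlc1 and Mlc2, Tm2 (tropomyosin), wupA (troponin I) and 3 genes without a symbol. Mlc2 was at 14.8, 2.21, 2.45, 10.6 and 1.87 FPKM in DMSO ants, from 1.26 to 16.0 (median 3.98) in 20E ants and from 1.13 to 49.6 (median 2.93) in JH3 ants. The highest library was JH3 replicate 4 for Mlc2, for Mhc (26.3 FPKM), Mlc1 (56.0), Tm2 (21.8) and wupA (18.8). The group was also above its cell mean in DMSO replicates 1 and 4, 20E replicates 2 and 4 and JH3 replicate 3, so more than 1 ant made the pattern. Of the 8 genes of the muscle list outside the 187 with at least 1 FPKM in at least 5 libraries, 3 correlated with the group mean above 0.5, against 1.47% of all 9194 such genes: Mf (0.84), Actn (0.64) and tn (0.61). sls, below that level, had r = 0.89. TpnCI (0.91) and TpnT (0.70), troponin genes, also followed. The muscle genes did not rise with the photoreceptor genes, and the correlations were negative (Arr1 and Mhc, r = -0.50). Between the photoreceptor block and 7 of the 8 muscle genes the median r was -0.28 (-0.55 to -0.15). Tm1, SERCA and fln of the same list had r of -0.04, -0.25 and -0.34 with the group.

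**Figure D4:**
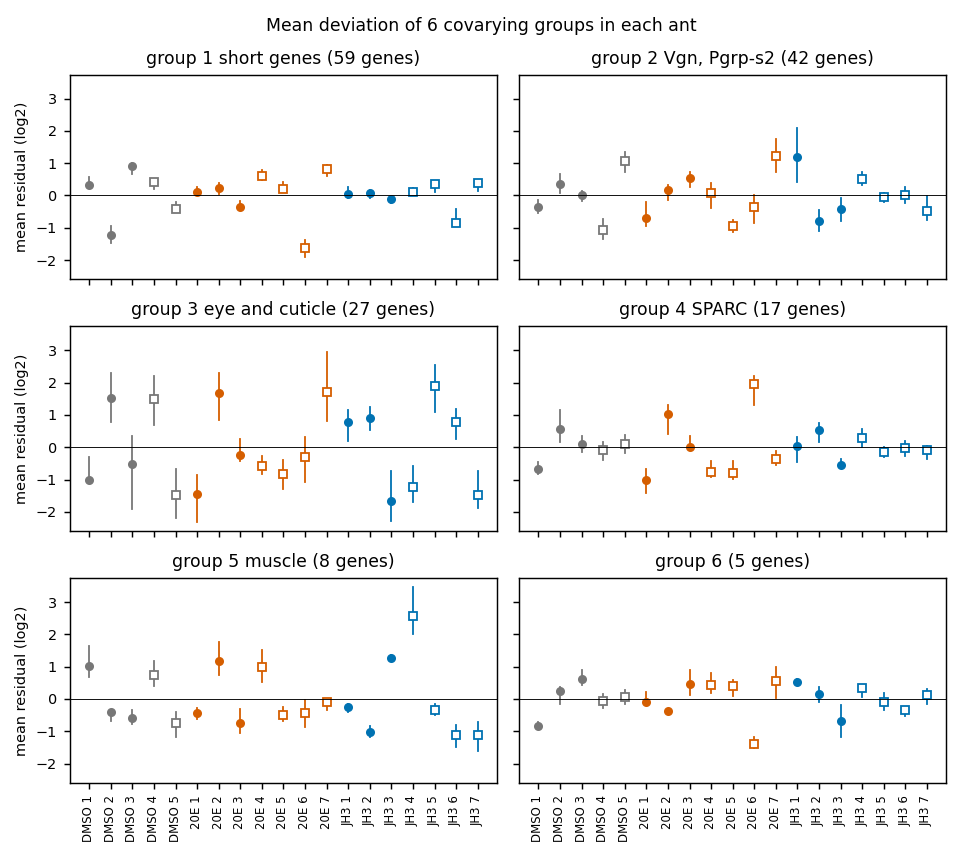
Mean residual (log2) of the genes of each of the 6 covarying groups in every ant, with bars from the lower to the upper quartile over genes; colours mark DMSO (grey), 20E (orange) and JH3 (blue), filled circles run 190514 and open squares run 200212. The groups order the ants differently: group 1 is at -1.62 and group 4 at 1.94 in 20E replicate 6, and the muscle group is at 2.58 in JH3 replicate 4.

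The group of 42 genes that holds Pgrp-s2 and Vgn has 9 genes with a symbol. Divided at 0.3, it gave a block of 18 genes with Pgrp-s2 and Paics (median r 0.87), a block of 6 with Tsp (0.79) and a block of 5 with Vgn (0.77). Vgn had r = 0.68 with the rest of the 42 genes. Vgn, the symbol of vitellogenin, was at 0.187, 0.999, 0.359, 1.04 and 37.1 FPKM in DMSO ants, from 0.114 to 13.1 (median 0.464) in 20E ants and from 0.0871 to 131 (median 2.70) in JH3 ants. The 3 highest ants were JH3 replicates 4, 5 and 6, at 131, 58.4 and 86.4 FPKM, and JH3 replicate 7 stayed at 0.946. Pgrp-s2, a peptidoglycan recognition protein by its symbol, was at 2.91, 8.73, 4.51, 0.782 and 8.41 FPKM in DMSO ants, from 0.478 to 9.97 (median 2.89) in 20E ants and from 2.94 to 35.8 (median 7.25) in JH3 ants. It had the largest r to the rest of the group among the genes with a symbol, 0.96. The unnamed LOC105187458 ran from 2.65 to 281 FPKM with r = 0.94. ple, the tyrosine hydroxylase that starts dopamine and cuticle pigment synthesis, spanned 10.9 to 81.8 FPKM and peaked in 20E replicate 7. The others were Paics (purine synthesis), Tsp (thrombospondin), Tret1 (trehalose transport), Col4a1 (basement membrane collagen), Mdr49 (an ABC transporter) and Esp.

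Some genes of carbohydrate, amino acid and 1-carbon metabolism outside the 187 had a similar pattern. Of the 15 in a list that reached at least 1 FPKM in at least 5 libraries, 7 correlated with the group mean above 0.5, against 7.06% of all 9194 such genes. They were fbp (0.95), a gluconeogenesis enzyme, Tps1 (0.88), which makes trehalose, Got2 (0.72), and pug (0.86), Shmt (0.85), Gnmt (0.84) and Ahcy (0.86) of the folate and methyl cycles. The others did not, among them Glyp (-0.36), Pfk (-0.35) and Hex-A (-0.29) of glycogen breakdown and glycolysis and Got1 (-0.56). fbp spanned 8.86 to 38.0 FPKM and Gnmt 0.326 to 8.55. Cat (catalase) followed at r = 0.88, and PGRP-S3, another gene with a peptidoglycan recognition symbol, at 0.90. PGRP-S3 is not in the immune response list. Of the 10 genes of that list outside the 187 at that level, 0 passed 0.5. Without 20E replicate 6, 2 of the 10 passed, beside 9.43% of all 9194 genes. Of the 7 genes of the fat body and haemolymph list outside the 187 at that level, 1 passed 0.5, and that was Gnmt again. The summed FPKM of the list without Vgn ranged from 1591 to 2397, and was 1684, 1686 and 1987 in the 3 ants with the most Vgn. Among genes with a symbol, those most like Vgn itself were Dsk, the sulfakinin neuropeptide, Hex70a, a hexamerin storage protein, and sog, each with r = 0.80; for Dsk the value was 0.48 in run 190514 and 0.97 in run 200212.

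The group of 17 genes had 1 named gene, SPARC, a collagen-binding matrix protein that haemocytes and fat body make in the fly. SPARC was at 65.4, 102, 128, 21.6 and 61.5 FPKM in DMSO ants, from 36.1 to 166 (median 66.9) in 20E ants and from 45.9 to 222 (median 81.4) in JH3 ants. Among the 187, its largest r was with LOC105186275 of the same group (0.94), followed by Col4a1 of the Pgrp-s2 group (0.93, and 0.96 and 0.95 within the runs). LOC105187984 and LOC105180856 led the group in spread, at 0.320 to 76.9 and 0.268 to 54.9 FPKM, with the highest value of both in 20E replicate 6. That ant held a median of 36.8% of the group's squared residuals, and the group's mean residual correlated with the log2 ratio of the authors' scaling to total reads at r = -0.70, and at -0.47 without 20E replicate 6 and JH3 replicate 1. Without 20E replicate 6 and JH3 replicate 1 the median r within the group was 0.56, against 0.70. Of the 5901 other genes, 210 correlated with the group mean above 0.8, and 8 without 20E replicate 6. Of the 13 genes of the mitochondrial respiration list, 8 had r above 0.5 with the group mean, as did 9 of the 16 neuron markers, beside 19.4% of all 9194 genes. Without 20E replicate 6 these were 5 of 13 and 3 of 16, beside 6.30%. Of the 12 eye-list genes, 1 passed 0.5 with all libraries and 5 without 20E replicate 6. The mean residuals of this group and of the eye and cuticle group had r = 0.33. That value was 0.49 without 20E replicate 6 and JH3 replicate 1.

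The largest group, 59 genes, was made of short genes. The median length was 0.37 of that of the 6088 genes, and 57 of the 59 were shorter than the median gene. Genes below the median length were common in other groups too. They were 24 of 27 in the eye and cuticle group (median length 0.49) and 7 of 8 in the muscle group (0.59). In the SPARC group they were 13 of 17 (0.53), and in the Pgrp-s2 group 26 of 42 (0.88). It held 13 pseudogenes, 10 of them in a run of 13 genes that follow one another in the gene table and all belong to the 187. These reached high levels: LOC109504538, a pseudogene, was at 418, 50.6, 1259, 1095 and 437 FPKM in DMSO ants, from 106 to 1695 (median 801) in 20E ants and from 469.6 to 1467 (median 1088) in JH3 ants. Because near-identical copies can split reads between them, single values in this run are uncertain. The 13 named genes were Coa8, roh, Larp7, SmF, mus304, PGAP3, brn, NdufV3, e(r), Fancd2, MrgBP, Cds and BORCS7, which span cytochrome oxidase assembly (Coa8), RNA splicing (SmF), complex I (NdufV3), DNA repair (mus304, Fancd2) and glycolipid or phospholipid synthesis (brn, Cds). Coa8 was at 5.22, 0.518, 6.44, 6.13 and 3.83 FPKM in DMSO ants, from 0.368 to 7.39 (median 5.58) in 20E ants and from 3.11 to 7.69 (median 6.41) in JH3 ants. The low ants were 20E replicate 6 and DMSO replicate 2, and the other 17 were at 3.11 to 7.69 FPKM.

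The pattern of this group reached well beyond it. Of the 5901 other genes with a mean of at least 5 FPKM, 524 (8.88%) correlated with its mean above 0.8, and 310 (5.25%) without 20E replicate 6. The mean residual of the 59 genes correlated at r = 0.84 with the log2 ratio of the authors' scaling to total reads, and at 0.80 with the difference in residual between the shortest and the longest genes of the table. For the photoreceptor and cuticle group the same 2 values were -0.18 and 0.10, and for the Pgrp-s2 group 0.03 and 0.37. They were 0.47 and 0.29 for the muscle group, -0.70 and -0.43 for the SPARC group, and 0.42 and 0.55 for the group of 5 genes. Without 20E replicate 6 and JH3 replicate 1, r with the scaling ratio was 0.74 for the 59 genes, 0.53 for the muscle group and 0.04 for the group of 5. 20E replicate 6 held a median of 37.1% of the squared residuals of the 59 genes. Without it and JH3 replicate 1 the median r was 0.87, with a median RMS residual of 0.48 in place of 0.68, and with values scaled to total reads they were 0.91 and 0.73. The part of length and scaling in this pattern was not tested. The last group of at least 5 genes held no gene with a symbol, and its median r of 0.63 was 0.36 without those 2 libraries.

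A few genes stood at separate levels rather than on a smooth range, and were picked out after their values were seen. In 5 of the 187 genes the widest gap between neighbouring values, with at least 3 libraries on each side, took over 0.4 of the whole log2 range (median 0.13 over the 187). LOC105184204 was at 0.788 to 1.56 FPKM in 7 libraries, at 13.4 to 14.7 in 3 and at 22.6 to 30.5 in 9, and each of the 3 levels held ants of more than 1 group. LOC112589190, a pseudogene, was its mirror image (r = -0.89). It was listed at 0 in 8 of the 9 libraries that were highest for LOC105184204 and had 1 read in the other, and it was at 8.37 to 17.0 FPKM in the remaining 10, from 126 to 374 reads. LOC112590156 followed LOC105184204 at r = 0.98, and reached 10.8 FPKM. mol, which in the fly helps the dual oxidase mature, was at 0.369 to 0.763 FPKM in 4 ants (20E replicates 2, 5 and 6 and JH3 replicate 4) and at 4.06 to 14.6 in the other 15. The next genes in the gene table, LOC105191213 and LOC105191214, followed mol at r = 0.96 and 0.97. Pdf, the clock neuropeptide, was the only gene of the neuropeptide list among the 187 (1 of 12 with a mean of at least 5 FPKM). Pdf was at 2.25, 12.6, 1.78, 5.69 and 4.81 FPKM in DMSO ants, from 3.93 to 18.9 (median 9.74) in 20E ants and from 1.78 to 19.3 (median 4.90) in JH3 ants. Pdf was not one of the 5 genes with a wide gap. Its RMS residual was 1.17 in run 190514 and 0.37 in run 200212, and JH3 replicate 2 held 30.4% of its squared residuals.

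**Figure D5:**
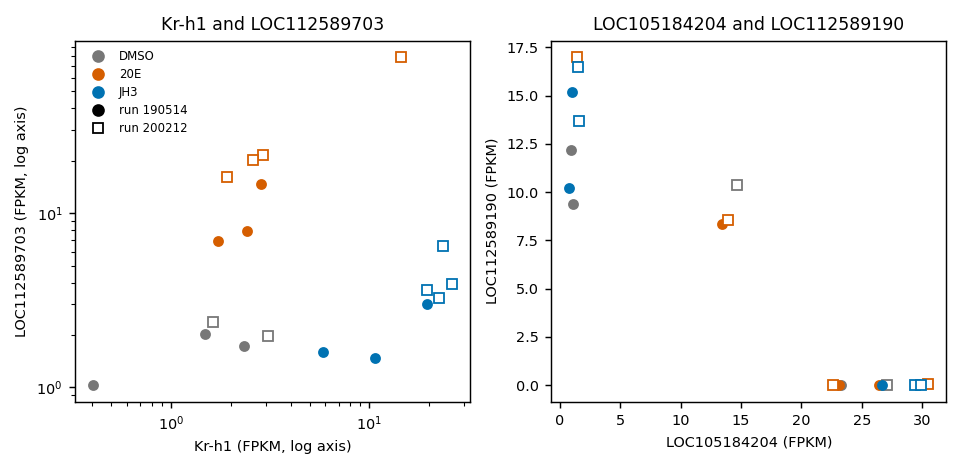
FPKM of Kr-h1 against LOC112589703 (left, log axes) and of LOC105184204 against LOC112589190 (right, linear axes), 1 point for each ant, with DMSO in grey, 20E in orange and JH3 in blue, circles for run 190514 and squares for run 200212. Kr-h1 is high in JH3 ants and LOC112589703 in 20E ants, with 20E replicate 6 high for both, and LOC112589190 is at or near 0 in the 9 ants with the most LOC105184204.

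The hormone comparisons were tested by limma on log2(FPKM + 0.5) with the run label as a term, adjusted over 9381 genes. Of the 187 genes, 1 differed between 20E and DMSO, where it was higher in 20E, while 3.34% of all genes tested differed (2.59% higher and 0.746% lower). Between JH3 and DMSO 1 of the 187 differed, higher in JH3, against 0.927% of all (0.629% higher and 0.298% lower). Between 20E and JH3 it was 3, against 5.34% of all: 1 was higher in 20E (3.90% of all) and 2 lower (1.44% of all). At an unadjusted p under 0.05 the counts were 4, 5 and 16, beside 9.04%, 8.29% and 13.9% of all genes. The median standard error of the 187 genes was 0.45 in the comparisons with DMSO, against 0.13 for all genes, so that a difference had to be larger to pass. The interaction of hormone and run label passed adjustment in 0 of the 187 genes in each comparison by limma, and in 0 of all genes tested. At an unadjusted p under 0.05 it was 7, 7 and 4 of the 187 (3.74%, 3.74% and 2.14%), beside 2.21%, 4.80% and 2.64% of all genes. The hormone comparisons share their samples, so they are not independent of each other.

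Kr-h1, the zinc finger factor that carries the juvenile hormone signal, was at 2.34, 1.49, 0.405, 3.09 and 1.63 FPKM in DMSO ants, from 1.72 to 14.4 (median 2.58) in 20E ants and from 5.85 to 26.2 (median 19.5) in JH3 ants. All 7 JH3 ants lay above all 5 DMSO ants. The log2 difference between JH3 and DMSO was 2.90 (SE 0.39, limma adjusted p = 0.000314), and between 20E and JH3 it was -2.24 (SE 0.35, adjusted p = 0.000349). The value for JH3 against DMSO was 2.70 in run 190514 and 3.08 in run 200212. LOC112589703, a long non-coding RNA, was at 1.74, 2.02, 1.03, 1.97 and 2.36 FPKM in DMSO ants, from 6.90 to 78.7 (median 16.1) in 20E ants and from 1.47 to 6.47 (median 3.28) in JH3 ants, so that every 20E ant lay above every other ant. It was higher in 20E than in DMSO by 2.80 (SE 0.34, limma adjusted p = 3.50e-05) and than in JH3 by 2.33 (SE 0.31, adjusted p = 5.09e-05). The residuals of Kr-h1 and LOC112589703 correlated at r = 0.83 within these groups (0.73 and 0.89 within the runs), and at 0.60 without 20E replicate 6. For both genes the ant farthest from its cell mean was 20E replicate 6, which held 40.7% and 46.2% of their squared residuals.

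The third gene called was LOC105187611 of the Pgrp-s2 group. It was at 32.2, 45.9, 34.5, 17.0 and 91.9 FPKM in DMSO ants, from 11.4 to 79.7 (median 17.9) in 20E ants and from 31.8 to 132 (median 81.1) in JH3 ants, and the 20E and JH3 ants overlapped. The log2 difference between 20E and JH3 was -1.56 (SE 0.41, limma adjusted p = 0.0304), with -1.22 and -1.81 within the runs. The call was lost when any 1 of 20E replicates 1, 2, 5 and 6 or JH3 replicates 1, 4, 5 and 6 was left out (adjusted p = 0.0579 to 0.0777 by limma), without 20E replicate 6 and JH3 replicate 1 together (-1.23, adjusted p = 0.152), and with the replicate number as a block (adjusted p = 0.0757). The other 41 genes of that group did not pass in any hormone comparison. Their values leaned to 1 side: 41 of the 42 log2 differences between JH3 and DMSO were positive (median 0.61, median SE 0.49, beside a median of 0.00 over all genes), and 41 of 42 between 20E and JH3 were negative (median -0.66). These genes were chosen to covary, so their signs are not independent. In the short-gene group, 57 of 59 differences between JH3 and DMSO were positive as well (median 0.52, median SE 0.42), with 0 called. For Vgn the values were 1.29 (SE 1.08, adjusted p = 0.688) between JH3 and DMSO and -2.04 (SE 0.98, adjusted p = 0.367) between 20E and JH3. No gene of the photoreceptor and cuticle group or of the muscle group passed in a hormone comparison. Arr1 differed by -0.17 (SE 1.46, adjusted p = 0.967) between JH3 and DMSO and apd-3l by 0.92 (SE 1.46, adjusted p = 0.811), intervals that leave room for several-fold effects in either direction.

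Between the run labels, 24 of the 187 genes differed by limma, against 50.9% of all genes tested: 9 were higher in run 200212 (25.6% of all genes) and 15 lower (25.3% of all). Without 20E replicate 6, 37 differed. Of the 17 genes of the SPARC group, 9 were lower in run 200212 and none higher, SPARC itself by -0.83 (SE 0.30, adjusted p = 0.0283). Vgn was higher by 3.30 (SE 0.85, adjusted p = 0.00353): all 9 ants of run 190514 were at or below 2.70 FPKM, and 6 of the 10 ants of run 200212 were above 10. The run labels differ in the replicates they hold, and what else differs between them is not given in the labels.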

How the data were processed

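The authors deposited 1 table of FPKM values for 14001 genes in 19 libraries; per the submitters' processing notes the tools were bcl2fastq, STAR, DESeq2 and featureCounts, without versions. Neither the genome build nor the annotation is given in the sources used here. These deposited FPKM values lay on a grid from which whole reads were read back for all genes with a value (100% within 0.02 of a whole number), which gave depth, relative gene length and the share of variance expected from counting error. Names, gene types and gene order came from RefSeq's gene table (assembly Hsal_v8.6), in which 13989 identifiers were found and 12 were not; no coordinates or sequences are given. Functions are those of the gene with the same symbol, mostly in the fly.

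Residuals of log2(FPKM + 0.5) from the means of the 6 cells of group and run label gave the 187 genes, and average linkage (scipy 1.17.1) on their correlations gave the covarying groups. Hormone and run differences were fitted with limma 3.58.1 in R 4.3.3 (trended variance, genes with at least 1 FPKM in at least 5 libraries, Benjamini-Hochberg adjustment over 9381 genes, threshold 0.05, two-sided). The added 0.5 understates changes of low genes. The limma fit and the tree were tested on simulated data. Each library is a single ant; the labels do not say whether ants came from separate nests, so p-values measure only the spread between these ants.

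The members, the gene lists and the tests were chosen with earlier results of these data known. List symbols were corrected to RefSeq spelling, 3 wrong entries were removed and Vgn was added after the table was opened. Named genes were, for each group of at least 5, up to 8 with a symbol and the largest r to the rest and the 2 with the largest RMS residual. Over all members they were the 10 with and 5 without a symbol with the largest RMS residual, those beside the boundary, list members and called genes; others were named after their values were seen. Alternatives were another pseudocount, level minimum, scaling, tree distance, rank correlation, limma voom on the reads, library weights, no run term, a replicate block and leaving out libraries. Same-numbered replicates did not deviate together throughout: 6 of 17 pairs had r above 0.1, from -0.46 to 0.47. The pairs of replicate 2 had 0.12, 0.38 and 0.21. The numbers were not taken as pairs in the main fit, and the replicate block was an alternative.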

Additional observations from a re-analysis of the deposited data

Results flagged for a closer look

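In the 50 named genes, 150 sets of ants (each gene in each group) were searched for an ant with an unusually wide gap to the next, relative to the group's range. Such a gap arises in about 1 in 20 independent sets, but these genes were chosen by the same values and covary, so the 14 found, 6 of them in 20E replicate 6, are a description and cannot be set against that rate. In that ant the genes of the short-gene group were low: Coa8 at 0.368 FPKM (next lowest 4.20), Larp7 at 0.991 (4.86), PGAP3 at 1.35 (4.34), BORCS7 at 1.96 (5.58) and MrgBP at 0.956 (4.80). Kr-h1 was high there, at 14.4 FPKM against 2.91 in the next 20E ant. The authors' scaling of that library, 0.763 of the value from total reads, moves with these values, and its part in them was not tested. Coa8 was also low in DMSO replicate 2, at 0.518 FPKM (next 3.83), and BORCS7 in JH3 replicate 6, at 4.92 (7.00).

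In the Pgrp-s2 group, JH3 replicate 1 was high for Pgrp-s2 (35.8 FPKM, next 8.46) and Paics (25.2, next 9.06), 20E replicate 7 for ple (81.8, next 25.5), and DMSO replicate 5 for Vgn (37.1, next 1.04). JH3 replicate 4 was low for mol, at 0.476 FPKM (next 4.25), and JH3 replicate 7 was high for LOC112588844, at 19.4 (next 11.3).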

How the results depend on the processing

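The number of genes chosen stayed within 1.5 times of 187 in 27 of 28 alternatives, and was 109 with the rule within run 200212 alone; leaving out each library in turn gave 160 to 196 genes, 142 to 184 of them among the 187. The ranking limits this count, and membership moved more: 86 of the 187 (46.0%) were shared with a level minimum of 1 FPKM, 84 (44.9%) with 10 FPKM and 136 (72.7%) without 20E replicate 6 and JH3 replicate 1. The covarying groups of at least 5 genes numbered 6, 5 to 7 without single libraries, 4 without those 2 libraries, 8 with the tree divided at 0.4 (74.0% of gene pairs kept together) and 10 with the tree divided at 0.3 (52.2%). The count of the 187 called for 20E against DMSO was 1 throughout. For JH3 against DMSO it was 1, and 2 with library weights. For 20E against JH3 it was 3, 2 to 5 without single libraries (5 without 20E replicate 7), 5 with limma voom on the reads and 6 with library weights. Between runs it was 24, 16 to 37 without single libraries (37 without 20E replicate 6) and 52 with library weights. Kr-h1 (2.62 to 3.34 for JH3 against DMSO) and LOC112589703 (2.52 to 3.04 for 20E against DMSO) kept direction and call in all 27 alternatives; the call of LOC105187611 was lost in 10 of 27, and its adjusted p ranged from 0.00472 to 0.152. With the replicate block it was lost at a difference of -1.56 (adjusted p = 0.0757), and no other call of the 187 was lost; 3 of 19 libraries correlated best with a library of their own number. The causes of these shifts were not tested. Counting error limits 4 of the 187 genes, for which it would give over 10% of the spread.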
